A study of Homo sapiens with 4 samples.

Results

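The core spliceosome proteins were followed in HCT116, a human colorectal carcinoma cell line, after transfection with siRNA against LINC00152. The members were all symbols in the 4 deposited tables that begin with SNRP, SF3A, SF3B or PRPF, or with LSM and a digit, which gave 47 genes of 19946 symbols. Of these, 17 encode the short Sm and LSm proteins, 20 encode large subunits (the SF3A and SF3B proteins numbered up to SF3B4, and the PRPF proteins), and 10 fit neither class. By the GENCODE v29 models the short proteins have 76 to 240 residues (median 103) and the large ones 312 to 2335 residues (median 676). Cells received a control non-targeting siRNA (si-NC) or LINC00152 siRNA (si-152) at 100 nM for 36 h, in 2 biological replicates each, and these 4 libraries of 1 cell line are the whole series. The labels give no passage, plating day or sequencing run, so that the p-values measure only the spread between these libraries. LINC00152 itself was not analysed here, so that the extent of its knockdown stands unchecked.

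Spliceosomes remove introns from pre-mRNA and are built from small nuclear ribonucleoproteins (snRNPs), each made of a small nuclear RNA and its proteins. A ring of 7 Sm proteins (SNRPB, SNRPD1, SNRPD2, SNRPD3, SNRPE, SNRPF and SNRPG) encircles the U1, U2, U4 and U5 RNAs. A related ring of LSM2 to LSM8 binds the end of U6 RNA, and the ring in which LSM1 takes the place of LSM8 acts in the cytoplasm in decay of mRNA. SF3A and SF3B sit on the U2 snRNP, where SF3B1 and its partners hold the branch point of the intron, and the PRPF proteins include the U5 scaffold PRPF8 and the U4/U6 proteins PRPF3, PRPF4 and PRPF31.

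Levels are given in FPKM, a fragment number scaled to transcript length and library depth. The unit was inferred from the values, since the tables name neither it nor the read number, and the depth behind each value is unknown. The summed FPKM of the libraries ran from 424260 to 533875. A gene was tested if it reached 1 FPKM in at least 2 libraries, which 11204 genes did, and log2(FPKM + 1) was compared by limma with Benjamini-Hochberg adjustment over all of them. Changes below are si-152 minus si-NC on this log2 scale, which understates the change of low genes. Of 8 epithelial markers, 6 were above 8 FPKM in every library, among them EPCAM, KRT8 and KRT18, while CEACAM5 was listed at 0 in all 4 libraries and VIL1 stayed under 0.06 FPKM. Of 7 markers of other cell types, COL1A1 alone was above 1 FPKM, at 7.02 to 7.98 FPKM.

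Of the 47 members, 44 were tested, and 3 (LSM2, PRPF31 and SNRPN) did not reach the filter. One member, PRPF19, had an unadjusted p under 0.05 by limma, and it was higher in si-152. That is 2.27% of the tested members, below the 4.4% of all tested genes past the same threshold (1.89% higher and 2.51% lower). No member passed adjustment (0 of 44, lowest adjusted p = 0.9996 by limma), against 0.0179% of all genes, and no member combined that p with a fold change above 1.5 (1.65% of all genes). The 95% intervals of the changes reached 0.36 to 0.76 to either side of the estimate on the log2 scale, with a median of 0.43. In this fit a change smaller than a gene's own reach could not pass at an unadjusted p under 0.05 by limma. All tested members lay between -0.37 and 0.39. The groups were separated, with no overlap of their libraries, in 11 members (25%), 7 of them higher in si-152 (15.9%, against 16.5% of all tested genes) and 4 lower (9.09%, against 14% of all tested genes), where 30.4% of all tested genes were so separated.

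**Figure D1:**
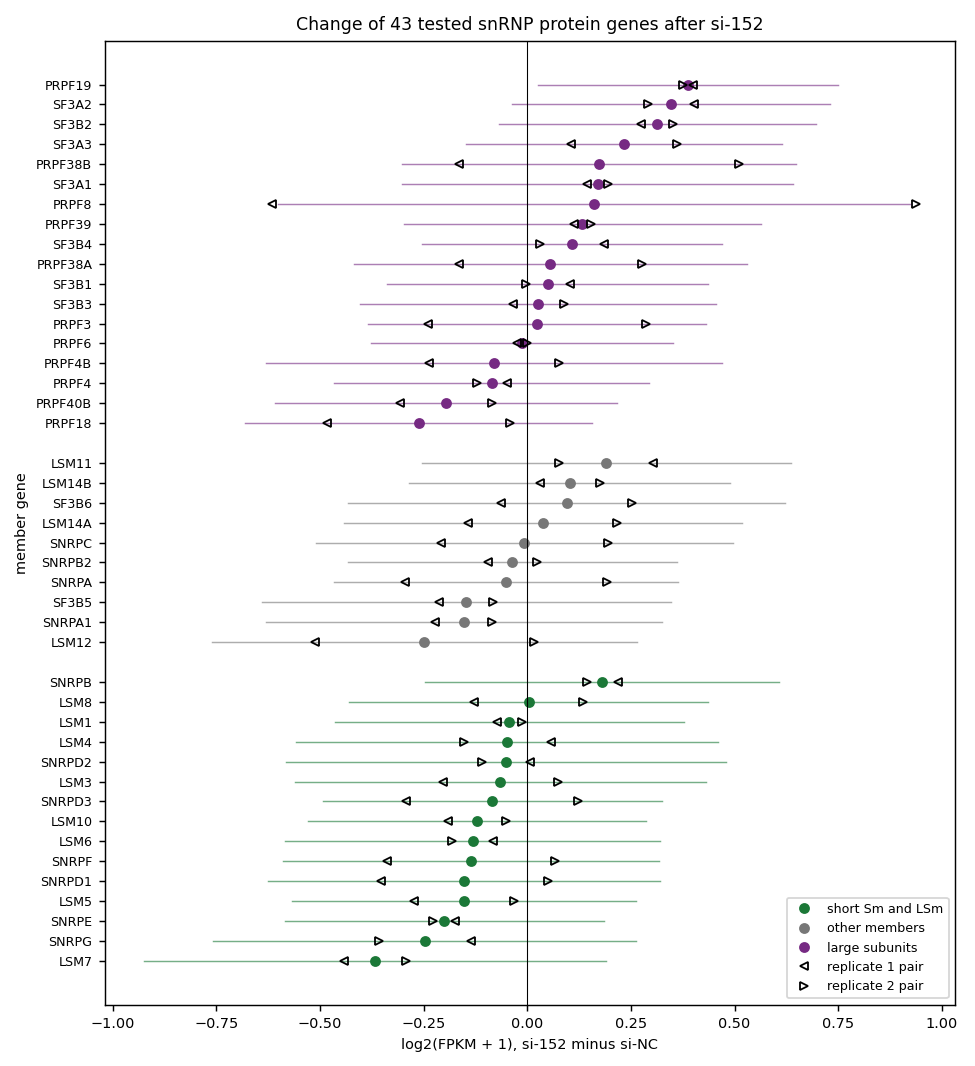
Change of 43 of the 44 tested members on the log2(FPKM + 1) scale, si-152 minus si-NC (x axis), 1 gene per row (y axis) in 3 classes. Filled points are the estimates from 2 libraries per group with 95% intervals as lines, and open triangles are the differences of the same-numbered libraries. PRPF19, at 0.39, has the only interval that does not cross 0, and 13 of the 15 tested short members sit left of 0.

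PRPF19, the ubiquitin ligase scaffold of the complex that joins the spliceosome at its activation, had 53.5 and 54.3 FPKM with si-NC (mean 53.9 ± 0.546, SD, n = 2). With si-152 it had 70.9 and 70.8 FPKM (mean 70.8 ± 0.0910, SD, n = 2). Both si-152 libraries were higher than both si-NC libraries, and the replicates of a group nearly coincided. Its change was 0.39 (standard error 0.16), with 0.40 in replicate pair 1 and 0.38 in pair 2, an unadjusted p of 0.0386 and an adjusted p of 0.9996 by limma. With any 1 library left out the change stayed between 0.38 and 0.40, and the unadjusted p by limma lay between 0.0972 and 0.173. PRPF19 lies on chromosome 11 of GRCh38 from 60890730 to 60906588, and its exons overlap no other gene in GENCODE v29. That annotation lists 1 pseudogene named after PRPF19.

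The SF3A subunits, which link SF3B to the U2 snRNP, leaned upward. SF3A2 had 28.0 and 25.5 FPKM with si-NC, against 37.3 and 31.4 FPKM with si-152. SF3A3 had 31.2 and 31.2 FPKM with si-NC, against 33.6 and 40.4 FPKM with si-152. In both genes the groups did not overlap, while the values did not pass the test (0.35, standard error 0.17, unadjusted p = 0.0715 for SF3A2, and 0.23, standard error 0.17, unadjusted p = 0.200 for SF3A3, by limma). SF3A1 had 18.2 and 13.3 FPKM with si-NC, against 20.3 and 15.4 FPKM with si-152, with overlap of the groups. In both pairs it was above its same-numbered control (0.15 and 0.20). Exons of SF3A2, on chromosome 19 from 2236504 to 2248679, overlap PLEKHJ1 on the opposite strand, and since no use of strand is stated their reads cannot be told apart here.

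Among the SF3B subunits, SF3B2, which contacts RNA near the branch point, had 63.2 and 67.9 FPKM with si-NC, against 76.6 and 87.0 FPKM with si-152. The groups did not overlap, and the change was 0.31 (standard error 0.17, unadjusted p = 0.0968 by limma). SF3B4, its binding partner, had 44.2 and 46.0 FPKM with si-NC, against 50.3 and 47.0 FPKM with si-152, also without overlap, with a change of 0.11. SF3B1, the subunit that encloses the branch point adenosine and is recurrently mutated in blood cancers, had 64.3 and 58.9 FPKM with si-NC, against 69.1 and 58.7 FPKM with si-152. Its groups overlapped, and its change of 0.05 had a 95% interval from -0.34 to 0.44. SF3B3, with 20.2 and 15.5 FPKM after si-NC and 19.7 and 16.5 FPKM after si-152, differed more between replicates than between groups. Per length, the short subunits SF3B5 and SF3B6 were the most abundant of the complex. SF3B5 had 151 and 188 FPKM with si-NC, against 129.99 and 178 FPKM with si-152, and SF3B6 had 153 and 185 FPKM with si-NC, against 146 and 220 FPKM with si-152. Their changes were -0.15 and 0.09, with overlapping groups. All 7 large SF3A and SF3B genes were thus above 0 (from 0.03 to 0.35), where 54.2% of all tested genes were above 0. These 7 have coding lengths from 1272 to 3912 bases. Of the tested genes with 1152 to 1605, 1608 to 2436 and at least 2439 coding bases, 43.7%, 38.4% and 29.1% were below 0. The part of coding length in this lean was not tested. In the reported fit 0 of the 7 passed the test by limma at an unadjusted p under 0.05. SF3B1 was just below 0 in pair 2 (-0.0034), and SF3B3 was below 0 in pair 1 (-0.03). All 7 were above 0 with size factors and with quantile normalization too. Without si-NC replicate 2 or without si-152 replicate 1, 4 of the 7 were above 0.

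**Figure D2:**
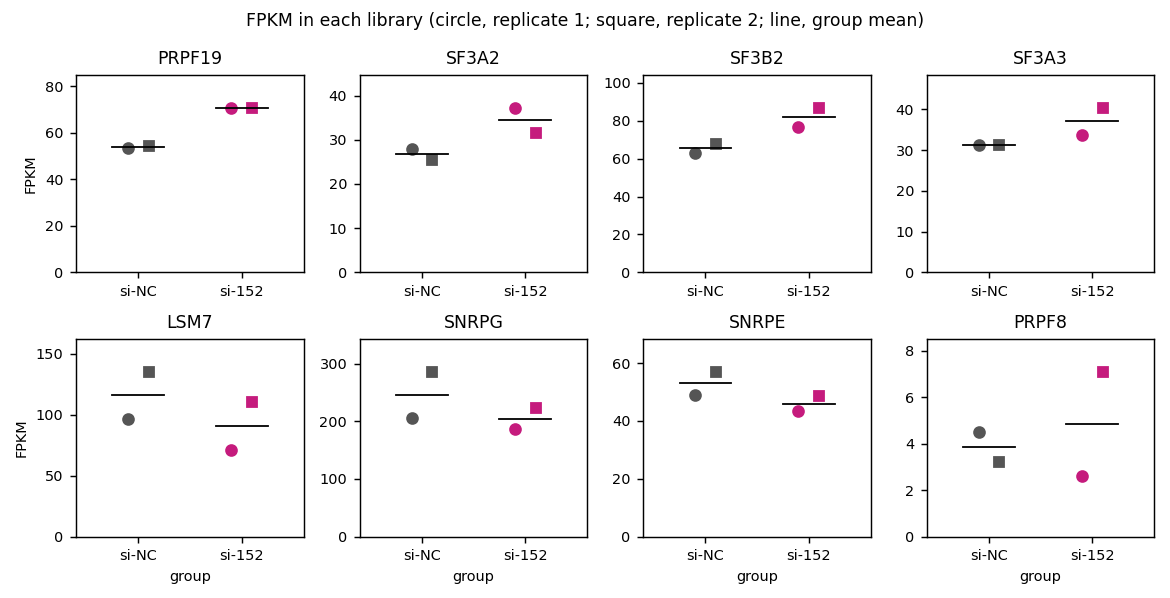
FPKM (y axis, from 0) in each si-NC and si-152 library (x axis) for 8 members, with circles for replicate 1, squares for replicate 2 and lines for group means. PRPF19, SF3A2, SF3B2 and SF3A3 are higher in both si-152 libraries, SNRPE is lower in both, LSM7 and SNRPG overlap between groups, and the si-152 libraries of PRPF8 are apart at 2.60 and 7.10 FPKM.

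Of the U5 and U4/U6 proteins, 0 of 4 tested genes passed by limma at an unadjusted p under 0.05. PRPF6, which bridges the U5 and U4/U6 snRNPs, had 36.4 and 38.9 FPKM with si-NC, against 35.8 and 38.9 FPKM with si-152, with overlapping groups. PRPF3 had 28.4 and 22.9 FPKM with si-NC, against 23.9 and 28.1 FPKM with si-152, with pair differences of opposite sign (-0.24 and 0.29). PRPF4, its partner on U4/U6, had 20.0 and 18.5 FPKM with si-NC, against 19.3 and 16.9 FPKM with si-152. PRPF8, the largest member, with a coding length of 7005 bases, had 4.52 and 3.22 FPKM with si-NC, against 2.60 and 7.10 FPKM with si-152. The si-152 replicates of PRPF8 lay on either side of both controls, the pairs gave -0.62 and 0.94, and without si-152 replicate 1 its change became 0.75 (unadjusted p = 0.0266 by limma). FPKM is a value per length, and the level of PRPF8 was below that of the other U5 proteins SNRNP200, at 24.3 to 38.9 FPKM, and EFTUD2, at 14.8 to 17.2 FPKM, in every library.

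Other PRPF genes included the lowest changes of the large class. PRPF18, which acts at the second step of splicing, had 13.2 and 10.9 FPKM with si-NC, against 9.15 and 10.6 FPKM with si-152 (change -0.26, standard error 0.19). The groups did not overlap, nor did they in PRPF40B (change -0.20), and neither gene passed the test by limma (unadjusted p = 0.192 and 0.313). PRPF4B, PRPF38A, PRPF38B and PRPF39 had changes from -0.08 to 0.17 with overlapping groups. Over the 19 tested large members the median change was 0.06, with 13 above 0 and 6 below (31.6%), while 54.2% of all tested genes were above 0 (45.8% below) and their median was 0.02. Their median was -0.03 in pair 1 and 0.15 in pair 2, and the pair 1 value turned to 0.0033 with size factors and to 0.01 with quantile normalization. Without si-NC replicate 2 the median was -0.044 and 6 of the 19 were above 0, and without si-NC replicate 1 the median was 0.23. In 8 of the 19 (42.1%) the groups did not overlap, 5 higher and 3 lower, against 30.4% of all tested genes (16.5% higher and 14% lower).

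The short Sm and LSm proteins leaned the other way. Of the 15 tested, 13 were below 0, with a median of -0.12, whereas 45.8% of all tested genes were below 0. In pair 1, 12 of the 15 were below 0 with a median of -0.17, and in pair 2, 9 were below 0 with a median of -0.03, against medians of -0.03 and 0.07 over all tested genes. In 7 of the 15 both pairs were below 0 (46.7%, against 27.3% of all tested genes), and in 1 both were above 0 (35.7% of all tested genes). With size factors 14 of the 15 and with quantile normalization 12 of the 15 were below 0. Without si-152 replicate 1 only 3 of the 15 were below 0, and their median became 0.11. None of the 15 passed by limma at an unadjusted p under 0.05 (lowest 0.171), and in 2 (13.3%) the groups did not overlap, 1 higher and 1 lower, against 30.4% of all tested genes.

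Within the Sm ring, SNRPG had 205 and 286 FPKM with si-NC, against 186 and 223 FPKM with si-152. The groups overlapped, and the change was -0.25 (standard error 0.23). SNRPE had 49.0 and 57.0 FPKM with si-NC, against 43.3 and 48.6 FPKM with si-152. Both si-152 values of SNRPE were below both controls, by a narrow margin in replicate 2, and the change was -0.20 (standard error 0.17, unadjusted p = 0.271 by limma). SNRPB, with 168 and 189 FPKM after si-NC and 196 and 209 FPKM after si-152, was the ring gene above 0 (change 0.18, standard error 0.19), without overlap of the groups. SNRPD1, with 123 and 133 FPKM after si-NC, had 96.0 and 138 FPKM after si-152. SNRPF, with 88.1 and 93.7 FPKM after si-NC, had 69.4 and 98.2 FPKM after si-152. SNRPD3, with 33.6 and 33.0 FPKM after si-NC, had 27.3 and 36.0 FPKM after si-152. These 3 genes shared one shape, in which si-152 replicate 1 was the lowest library and si-152 replicate 2 the highest. SNRPD2, with 165 and 236 FPKM after si-NC and 166 and 218 FPKM after si-152, followed the replicate number and not the siRNA.

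Among the LSm genes the largest difference of all short members was that of LSM7, a subunit of both LSm rings. LSM7 had 96.6 and 135 FPKM with si-NC, against 70.8 and 110 FPKM with si-152, lower than its same-numbered control in each pair (-0.44 and -0.29) while the groups overlapped (change -0.37, standard error 0.25, unadjusted p = 0.171 by limma). The change of LSM7 ran from -0.68 without si-152 replicate 2 (unadjusted p = 0.00493 by limma) to -0.05 without si-152 replicate 1. LSM7 lies on chromosome 19 from 2321517 to 2328620, and its exons overlap SPPL2B on the opposite strand. LSM5 had 28.4 and 31.4 FPKM with si-NC, against 23.4 and 30.7 FPKM with si-152, and LSM6 had 35.5 and 48.1 FPKM with si-NC, against 33.5 and 42.3 FPKM with si-152. LSM3 had 94.4 and 115 FPKM with si-NC, against 81.8 and 121 FPKM with si-152, and LSM4 had 124 and 180 FPKM with si-NC, against 129 and 161 FPKM with si-152. In all 4 of these genes the groups overlapped, with changes from -0.15 to -0.05. LSM1, the subunit that marks the cytoplasmic ring, had 34.2 and 41.7 FPKM with si-NC, against 32.5 and 41.3 FPKM with si-152. LSM8, the subunit that marks the nuclear ring, had 5.06 and 4.33 FPKM with si-NC, against 4.55 and 4.85 FPKM with si-152. Their changes were -0.04 and 0.0032, with 95% intervals from -0.46 to 0.38 and from -0.43 to 0.44. LSM10 and LSM11 stand in for a pair of Sm proteins in the U7 snRNP, which matures histone mRNA. LSM10 was between 46.6 and 60.6 FPKM with a change of -0.12. LSM11, a longer protein, had 1.52 and 1.66 FPKM with si-NC, against 2.11 and 1.81 FPKM with si-152, without overlap (change 0.19, standard error 0.20).

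The remaining members belong to U1, to U2 or to LSm proteins outside the rings. SNRPA and SNRPC, which are specific to U1, ranged from 50.1 to 65.9 and from 81.4 to 125 FPKM, and SNRPA1 and SNRPB2, which are specific to U2, from 31.7 to 48.0 and from 39.4 to 48.4 FPKM. Their changes lay between -0.15 and -0.0071, with overlapping groups in each of the 4 genes. LSM12 (11.3 to 18.5 FPKM), LSM14A (1.22 to 1.89 FPKM) and LSM14B (28.5 to 35.4 FPKM) had changes from -0.25 to 0.10, and in these too the groups overlapped.

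The ring genes kept much the same order of level in every library. By mean FPKM over the 4 libraries, SNRPG (225) led the Sm ring, followed by SNRPD2 (196), SNRPB (191), SNRPD1 (122), SNRPF (87.4), SNRPE (49.5) and SNRPD3 (32.5), a span of 6.93 times. SNRPD2 and SNRPB changed places between libraries (SNRPD2 was higher in 2 of 4), and each other neighbour kept its order in 4 of 4, although the ranges of SNRPG and SNRPD2, and of SNRPD1 and SNRPF, overlapped. In the LSm rings LSM4 (149) was followed by LSM7 (103), LSM3 (103), LSM6 (39.8), LSM1 (37.4), LSM5 (28.5) and LSM8 (4.70), a span of 31.7 times. LSM7 and LSM3 did not differ beyond their spread, whereas LSM8 was below LSM1 and LSM5 in every library. In SF3B the means ran from 176 for SF3B6 to 18.0 for SF3B3, and in SF3A from 34.1 for SF3A3 to 16.8 for SF3A1. GENCODE v29 lists 20 pseudogenes named after SNRPG, 18 after SNRPC, 9 after SNRPE and 4 each after SNRPF and LSM3. Since the counting of reads shared with such copies is not stated, the levels of these genes are uncertain.

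**Figure D3:**
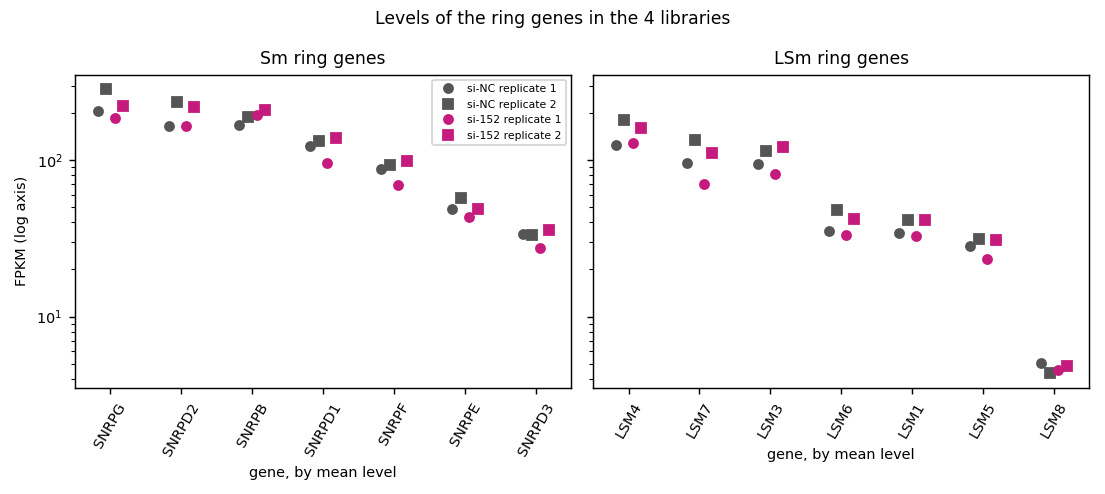
FPKM on a log axis (y) for the tested Sm ring genes (left) and LSm ring genes (right), in order of mean level (x), with gray for si-NC, pink for si-152, circles for replicate 1 and squares for replicate 2. Mean levels span from 225 FPKM for SNRPG to 32.5 FPKM for SNRPD3, several neighbours overlap in range, and LSM8 stands alone near 4.70 FPKM.

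In the short members the replicates of a group differed more than the siRNA groups did. Of the 15 tested, 13 were higher in replicate 2 than in replicate 1 in both groups (86.7%), which held for 29.5% of all tested genes, and 0 were lower in both (44.2% of all tested genes). The median difference between replicates was 0.22 in si-NC and 0.34 in si-152, against a median siRNA difference of -0.12 in the same genes. The mean replicate difference exceeded the siRNA difference in size in 13 of the 15 short members and in 11 of the 19 large ones, where the share over all tested genes was 63.1%. The median log2 level of the short members exceeded that of the large ones by 1.62 and 2.28 in si-NC replicates 1 and 2, and by 1.499 and 1.86 in si-152 replicates 1 and 2. This gap was smaller in si-152 within each pair, and the groups overlapped. Short members took up 0.282% and 0.308% of the summed FPKM in si-NC and 0.284% and 0.304% in si-152, so that this share followed the replicate number. Large members took up 0.116% and 0.0920% in si-NC and 0.133% and 0.111% in si-152.

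Over all tested genes both differences moved with coding length. Tested genes were split into quintiles by coding length, using the GENCODE v29 principal transcript of 10776 genes. The shortest quintile, with up to 735 coding bases, had a median siRNA change of -0.07, and 64.2% of its 2159 genes were below 0. The longest quintile, with at least 2439 coding bases, had a median of 0.08, with 29.1% below 0. All 15 short members fell in the shortest quintile, and 17 of the 20 members in that quintile were below 0, with a median of -0.10. The longest quintile held 8 members, all of the large class, of which 4 were below 0, with a median of 0.0069. Both pairs were below 0 in 40.9% of the genes of the shortest quintile, near the 46.7% of the short members. In the longest quintile both pairs were below 0 in 16.7% of the genes. The replicate difference ran the opposite way with length, from 0.09 in si-NC and 0.22 in si-152 for the shortest quintile to -0.30 and -0.22 for the longest. Across the 44 members, Spearman's rho between coding length and the siRNA change was 0.48, and it was 0.27 across the 10776 genes. Within the classes it was 0.62 over the 15 short members and -0.19 over the 19 large ones. Genes share the same 4 libraries and are not independent replicates, so that these are descriptions. The part of transcript length in the difference between short and large members was not tested.

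**Figure D4:**
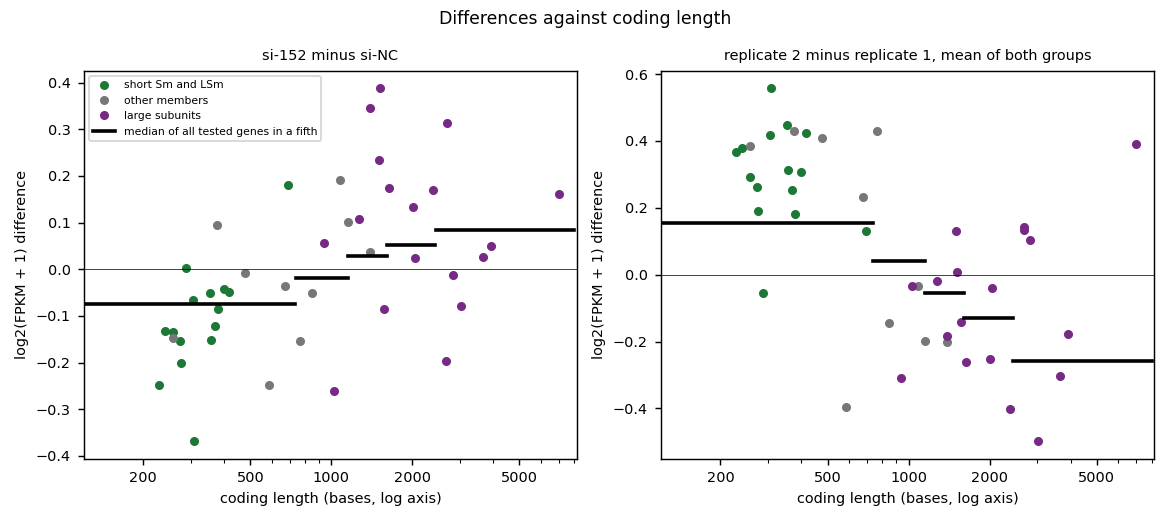
Coding length in bases (x, log axis) against the log2(FPKM + 1) difference (y) of 43 of the 44 tested members, for si-152 minus si-NC (left) and for replicate 2 minus replicate 1 (right). Black lines are medians of all tested genes in each quintile of coding length. The medians run from -0.07 to 0.08 on the left and fall with length on the right, and the members scatter around them.

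LSM2 and PRPF31 were listed at 0 FPKM in all 4 libraries, although LSM2 is a subunit of both LSm rings and PRPF31 holds the U4/U6 and U5 snRNPs together. A listed 0 can be a failed estimate, so these values are not read as absence of the transcripts, and the genes around both were mostly low as well. LSM2 lies on chromosome 6 of GRCh38 from 31797396 to 31806984, and of the 42 other genes that start within 250 kb of its start, 37 (88.1%) stayed under 1 FPKM in every library. These include CSNK2B, the regulatory subunit of casein kinase 2, at no more than 0.196 FPKM, and VARS, the valyl-tRNA synthetase, at no more than 0.0536 FPKM. Among the LSM2 neighbours above 1 FPKM, C6orf48 had 28.1 to 37.8 FPKM. PRPF31 lies on chromosome 19 from 54115410 to 54131719, and 18 of its 23 neighbours (78.3%) stayed under 1 FPKM. Its neighbour NDUFA3, a subunit of respiratory complex I, was listed at 0 throughout, and RPS9, a ribosomal protein, averaged 3.27 FPKM, where the other 30 small-subunit ribosomal protein genes averaged from 28.1 to 8168 FPKM with a median of 1532. Over all 18440 genes with a model, 40.0% stayed under 1 FPKM in every library. Around the 44 tested members the median share was 25%, with a range from 0% to 100%. SNRPN, the tissue-restricted relative of SNRPB, was listed at 0 in 3 libraries and at 0.0437 FPKM in si-152 replicate 1.

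**Figure D5:**
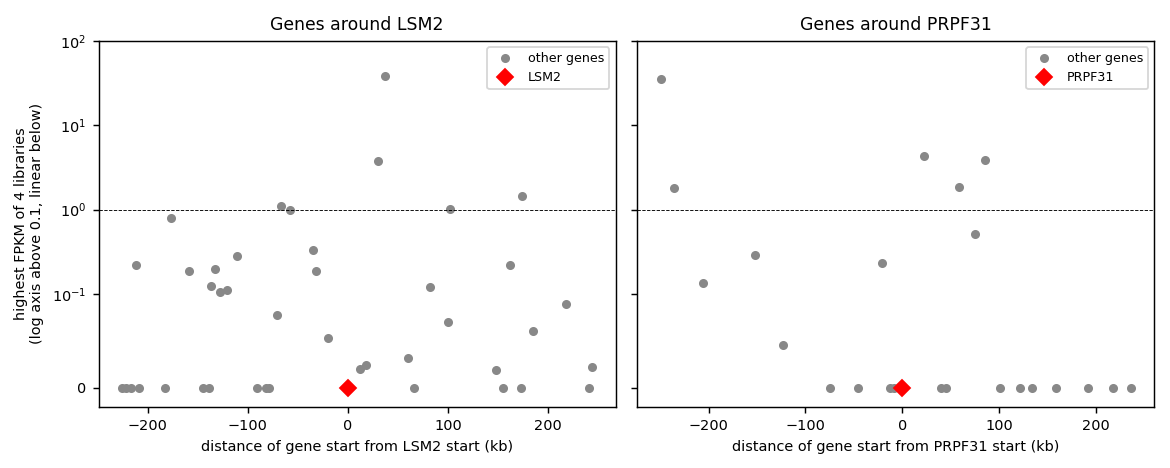
Highest FPKM over the 4 libraries (y, log axis above 0.1 and linear below) of genes by the distance of their start from that of LSM2 (left) or PRPF31 (right) in kb (x). Red diamonds are LSM2 and PRPF31 at 0, gray points are other genes, and the dashed line is 1 FPKM, under which 37 of 42 and 18 of 23 genes lie.

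Partners of the members outside the naming rule were read from gene lists of the spliceosome. Of 53 further snRNP and spliceosome proteins, 51 were tested, with a median change of 0.02, 29 above 0 and 22 below. An unadjusted p under 0.05 by limma was reached by 2 of them (3.92%, against 4.4% of all tested genes) and an adjusted p under 0.05 by 0. PHF5A, a small subunit of SF3B, had 31.6 and 37.4 FPKM with si-NC, against 42.8 and 55.5 FPKM with si-152 (change 0.49, standard error 0.19, unadjusted p = 0.0267 by limma), and it was named after its values were seen. Without si-NC replicate 1 or without si-152 replicate 2 its change was 0.37 or 0.31 and no longer passed, nor did it pass with size factors (0.47). PUF60, which assists U2AF at the 3′ splice site, had 7.76 and 7.45 FPKM with si-NC, against 3.54 and 5.57 FPKM with si-152 (change -0.66, standard error 0.22, unadjusted p = 0.0149 by limma). Without si-152 replicate 1 its change was -0.39 and did not pass. DHX16, a splicing helicase on chromosome 6 from 30653119 to 30673037, was listed at 0 in all 4 libraries, as LSM2 was, and 11 of its 15 neighbours within 250 kb (73.3%) stayed under 1 FPKM. Of the 19 genes that assemble or import the Sm ring, 11 were above 0 and 8 below (median 0.04), and 1 (5.26%) had an unadjusted p under 0.05. This was GEMIN2, the SMN partner that holds the open Sm ring, also named after its values were seen, with 18.1 and 14.4 FPKM after si-NC and 10.9 and 10.8 FPKM after si-152 (change -0.53, standard error 0.18, unadjusted p = 0.0163 and adjusted p = 0.964 by limma). Its change was -0.38 without si-NC replicate 1, and about -0.53 without either si-152 library, and in these 3 cases it did not pass.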

How the data were processed

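HCT116 RNA was sequenced in 4 libraries, and each deposited table lists the symbols and values of a single library. The submitters' processing notes name Trimmomatic, TopHat, HISAT2, HTSeq, DESeq and GRCh38, without role or version. The deposited values were taken as FPKM from their decimals, zeros and unequal sums, and the step that made them is not given in the sources used here. The study tested counts, which were not used here. Of 19974 rows, 28 with a symbol that reads as a date were left out. The filter of 1 FPKM in 2 or more libraries left 11204 genes, and their log2(FPKM + 1) values, not scaled further, were fitted with limma 3.58.1 (R 4.3.3), letting the variance follow the mean. A gene was called at an unadjusted p under 0.05, the significance threshold of the study. The study gave its numbers of up- and downregulated genes at a fold change above 1.5, which the calls here do not require. The fit was tested on simulated data with planted changes larger than that of any member. That run therefore does not bear on the detection of changes as small as those of the members. Alternatives were a pseudocount of 0.1, other filters, size factors, quantile normalization, no variance trend, a replicate block and leaving out each library. Coding lengths, positions and overlaps came from GENCODE v29 (Python 3.11.15, pandas 2.3.3).

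Values in each library were set down for the ring genes, the SF3A and SF3B genes, PRPF3, PRPF4, PRPF6, PRPF8, PRPF31, called members, and the 5 largest increases and 5 largest decreases with the same sign in both pairs, except 1 member that enters the counts and is not reported here. Of the partner lists, called genes with a fold above 1.5 were named. Members, classes and lists were chosen with earlier results of these data known. Pairs are same-numbered libraries.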

Additional observations from a re-analysis of the deposited data

How the results depend on the processing

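The number of members called at an unadjusted p under 0.05 was 1 in the reported fit by limma. By limma it was 0 with size factors (PRPF19 at an unadjusted p of 0.0625) and 0 without the variance trend (PRPF19 at an unadjusted p of 0.0537). With quantile normalization it was 2 of 44, where SF3B2 joined PRPF19 (unadjusted p of 0.0425 by limma). Of all 11204 tested genes, 547 were called with size factors, 467 without the trend and 648 with quantile normalization. The number of called members stayed at 1, PRPF19, with a pseudocount of 0.1 (487 of 11204 genes called) and with no filter. It was also 1, PRPF19, with 1 FPKM required in every library (459 of 10657 genes called). With any 1 library left out it was also 1, but PRPF19 was then replaced by LSM7 (without si-NC replicate 1, or without si-152 replicate 2), LSM12 (without si-NC replicate 2) or PRPF8 (without si-152 replicate 1). In these fits the group with 1 library is assumed to vary like the other. With the replicate block 4 members were called (LSM7, PRPF19, SF3A2 and SF3B2, 16.9% of all tested genes being called) and 0 passed adjustment (lowest adjusted p = 0.133 by limma, 0.66% of all tested genes passing). With the block a p under 0.05 by limma was reached by 4 of the 51 further snRNP and spliceosome proteins. It was reached by 1 of the 19 Sm ring assembly genes and by 3 of the 12 mRNA decay partners, against 16.9% of all tested genes. The deviations of same-numbered libraries correlated at 0.52 across genes, and nothing in the labels says that a number marks a shared day or batch. Members with separated groups numbered 9 with size factors, 12 with quantile normalization and 11 in the other fits on 4 libraries. The share over all tested genes, 30.4%, is given for the reported fit alone. With 1 library left out they numbered 21 to 34, but a group of 1 library is separated more easily, so these counts are not comparable. The median of the short members ran from -0.28 to 0.11 and that of the large subunits from -0.044 to 0.23 with 1 library left out, the causes of which were not tested, and elsewhere from -0.14 to -0.08 and from 0.039 to 0.09. The short median was below the large one except without si-NC replicate 2 and without si-152 replicate 1. Over all genes, 493 were called, 1888 with the block, 794 with no filter (15701 tested) and 311 without si-152 replicate 1, and 2 passed adjustment, against 74 with the block, 45 to 78 with a library left out and 0 with 1 FPKM required in every library. The unknown depth limits what can be said of low members such as PRPF8, LSM14A and LSM11.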

Other observations

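The ring that carries LSM1 works with cytoplasmic proteins that remove the cap of mRNA and degrade it. All 12 genes of a list of mRNA decay proteins were tested, among them XRN2 and EXOSC10, which act mainly in the nucleus (changes of -0.0041 and -0.06). Of them 9 were above 0 and 3 below, with a median change of 0.15, against 0.02 over all tested genes, and 7 were above 0 in both replicate pairs (35.7% of all tested genes were). An unadjusted p under 0.05 by limma was reached by 0 of the 12 (lowest 0.171). The groups did not overlap in 3 of the 12 (25%), all higher in si-152, against 30.4% of all tested genes (16.5% higher). The part of coding length in this lean was not tested. PATL1, the bridge between the LSM1 ring and the decapping enzyme, had 14.8 and 11.6 FPKM with si-NC, against 18.3 and 13.8 FPKM with si-152. Its groups overlapped. EDC4, a decapping scaffold, had 11.1 and 9.70 FPKM with si-NC, against 13.5 and 11.9 FPKM with si-152, with no overlap of the groups. Both were named after their values were seen. Of the 12 genes 10 were lower in replicate 2 in both groups, against 44.2% of all tested genes. Of the 7 tested LSm ring genes 6 were higher in replicate 2 in both groups, against 29.5% of all tested genes. Over all tested genes the replicate difference fell with coding length, and the part of length in this contrast was not tested.

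Exons of 19 of the 47 members overlap another gene in GENCODE v29, among them LSM1 with BAG4, LSM3 with XPC and SNRPD2 with QPCTL, and 13 members have pseudogenes named after them, 67 in all. How reads of such places were assigned is not stated.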
